A study of Arabidopsis thaliana with 6 samples.

Results

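In Arabidopsis thaliana seedlings grown on the herbicide norflurazon, 27 nuclear genes of 13217 stood apart in the gun1 gun5 double mutant while the treated and untreated wild type stayed close to each other, and 26 of the 27 were lower in the mutant. The genes were chosen from 13367 probe sets that name 1 gene of the nuclear genome, on the scale log2(signal + 16). In each of replicates 1 and 2 the treated wild type had to lie within 0.6 of the untreated wild type, and the treated mutant at least 0.7 away from both, always in the same direction. These values chose the genes, so every level and difference of the 27 is a description and none of them is tested here. A further 6 genes met the same numbers and are left out by name, among them DRT100 and XTH19.

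Total RNA of whole young seedlings, with cotyledons, hypocotyl and primary root but no true leaves, was hybridised to ATH1 arrays, 1 array per sample and 2 arrays per group. The groups were Col-0 wild type without herbicide, Col-0 wild type on 5 µM norflurazon, and the gun1,gun5 double mutant on 5 µM norflurazon. All 3 groups were kept at 23 °C on agar with 1.5% sucrose, in darkness for 3 days and then under continuous white light for 3 days. The labels name no alleles. No untreated mutant was analysed here, so a level seen in the treated mutant cannot be told apart from one that the mutant would have without the herbicide. The labels do not say whether the arrays of a group came from separate cultures, so the spread between them may be technical.

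Norflurazon blocks carotenoid synthesis, and in the light chloroplasts without carotenoids are bleached. Damaged chloroplasts send signals that lower the transcripts of many nuclear genes for photosynthesis, and gun (genomes uncoupled) mutants were isolated because those transcripts stay higher in them. GUN1 is a plastid protein of the pentatricopeptide repeat family, and GUN5 is a subunit of magnesium chelatase in chlorophyll synthesis. By family, of the 27 genes described here, 7 encode cell wall enzymes or wall proteins, 5 encode proteins that act on or bind lipids, and 3 belong to protein turnover. The share of these roles among all 13217 genes was not counted, so nothing is read from these counts. They also depend on which genes are named. Of 26 listed pectate lyase genes, 23 were named alone by a probe set. Of 154 genes on lists of other pathways, 13 were.

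Across the 26 lower genes the mutant signal was between 9.79% and 51.1% of the mean of the 4 wild type arrays, with a median of 41.0%. The mean log2 difference from the treated wild type ran from -2.03 to -0.72 (median -1.14), against a median of 0.00 over all 13367 probe sets. From the untreated wild type it ran from -1.99 to -0.76 (median -1.23). Both comparisons share the mutant arrays. Between the 2 wild type groups the mean difference ran from -0.49 to 0.33 (median -0.06). On every one of the 27 genes both mutant arrays lay outside the range of all 4 wild type arrays, which the rule makes likely; of the 13648 tested probe sets, 12.6% had both mutant arrays below all wild type arrays and 7.38% above.

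**Figure D1:**
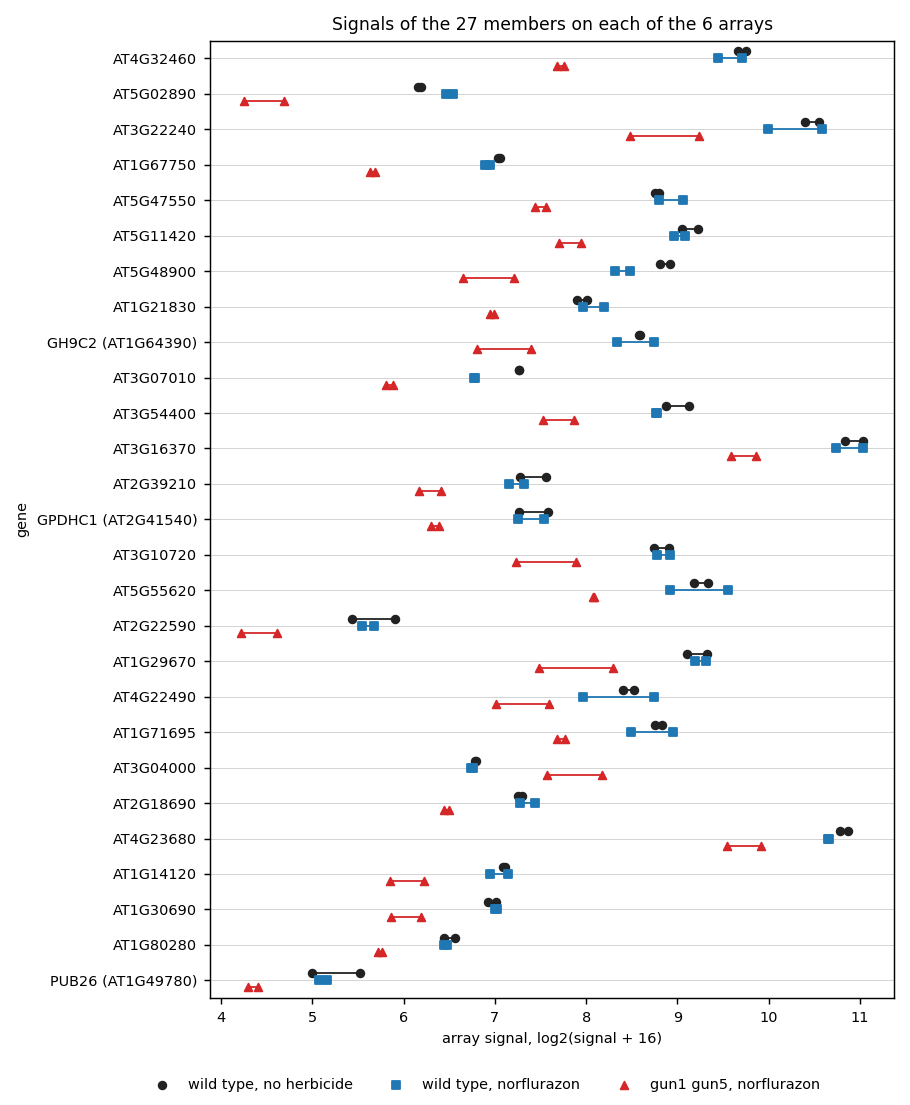
Signals of the 27 genes on the 6 arrays, as log2(signal + 16), with a line joining the 2 arrays of a group; genes are ordered by their smallest distance between mutant and wild type. Red triangles (mutant) lie left of all other points in 26 rows, and right of them for AT3G04000.

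The direction was uneven. The rule found 32 lower probe sets, 0.239% of the 13367, and 1 higher probe set, 0.00748%, before the 6 named genes were set aside. In the fit over all tested probe sets the calls leaned the other way, with 239 higher (1.75%) and 147 lower (1.08%) in the mutant against the treated wild type. The median log2 signal of the mutant arrays was lower than that of the wild type arrays by a difference of -0.06, and the split depended in part on the scaling. With each array centred on its median, 23 genes were lower and 8 higher; with quantile normalization 25 were lower and 3 higher.

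Without the condition on the wild type groups, 53 of the 13367 probe sets were at least 0.7 lower in the mutant than both wild type groups in both replicates, and 6 were higher. Of the 53, 32 met the condition. In 18 of the other 21 the treated wild type lay below the untreated wild type, and in 3 it lay above. The mutant was the lowest group in all 21, since they were chosen for that. The direction among all probe sets that failed the wild type condition was not counted, so nothing is read from the 18.

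**Figure D2:**
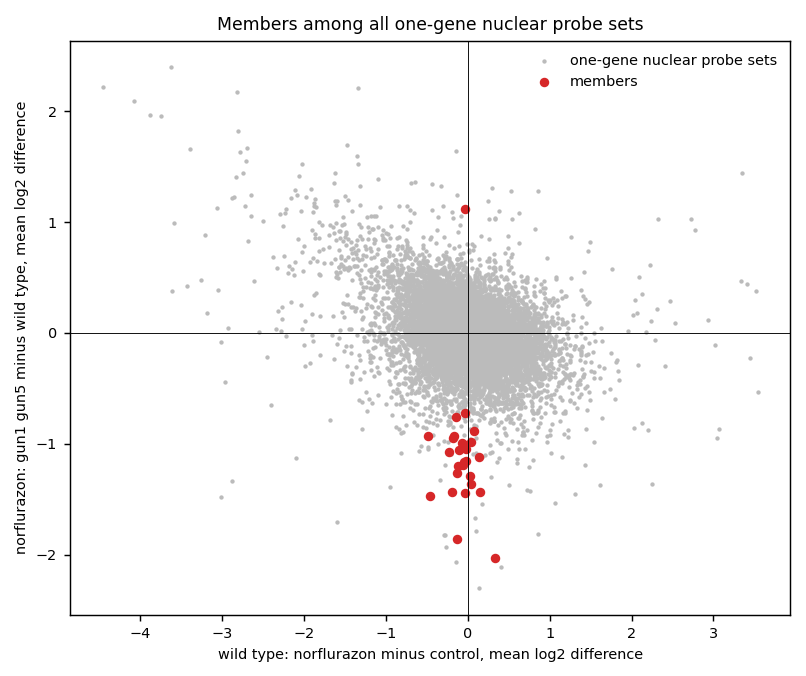
Each point is a probe set that names 1 nuclear gene; the x axis is treated minus untreated wild type and the y axis treated mutant minus treated wild type, both as mean log2 differences that share the treated wild type arrays. The 27 genes (red) form a vertical band near 0 on the x axis, 26 of them below -0.7.

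Enzymes that act on cell wall polysaccharides made up 5 of the 26 lower genes, and 3 of these belong to the pectate lyase family, whose members cut demethylated pectin. AT1G67750 had signals of 115.3 and 117.3 in the untreated wild type, 107.4 and 102.9 in the treated wild type, and 35.4 and 33.7 in the treated mutant. Its 4 wild type arrays lay close together and the mutant arrays far below them. The log2 difference from the treated wild type was -1.26 ± 0.15 (SE of the fit over all tested probe sets, n = 2 per group). AT5G48900 had 433.0 and 467.2, then 302.1 and 342.6, then 132.4 and 84.5, in the same order of groups. AT3G07010 had 137.7 and 137.8, then 93.7 and 93.0, then 42.8 and 40. For both of these the 3 groups did not overlap, with the treated wild type between the untreated wild type and the mutant. The mean wild type difference of AT3G07010 was -0.49 on the log2 scale, inside the limit of 0.6.

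AT3G10720, of the pectin methylesterase family, which removes methyl groups from pectin, had signals of 411.4 and 464.8 in the untreated wild type, 422.8 and 469.3 in the treated wild type, and 220.9 and 134.3 in the mutant. The wild type groups overlapped almost fully, while the 2 mutant arrays differed from each other more than the wild type arrays did. GH9C2 (AT1G64390), an endoglucanase that cuts glucan chains of the cellulose type, had 365.9 and 369.8, then 308.7 and 413.8, then 152.1 and 96.1. The mutant arrays again lay below all others, at a log2 difference of -1.44 ± 0.23 (SE) from the treated wild type.

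The DUF642 family, secreted proteins found in cell walls, gave 2 further lower genes. AT4G32460 had signals of 798.3 and 846.6 in the untreated wild type, 818.1 and 683.2 in the treated wild type, and 189.3 and 199.6 in the mutant. Its smallest distance between a mutant and a same-numbered wild type array was 1.70, the widest of the 27, and its log2 difference from the treated wild type was -1.86 ± 0.16 (SE). AT5G11420 had 584.3 and 516.3, then 525.9 and 481.8, then 229.6 and 191.7. The wild type groups of both genes overlapped.

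The other genes of these families were examined after the members had been seen, so no test is attached to the lists. Of 26 listed pectate lyase genes 23 were named alone by a probe set, and 11 probe sets passed the filter on dim signals. Of these 11, 3 are the members above and 8 are not. Among the 8, 7 had a lower mean in the mutant than in the treated wild type (median log2 difference -0.38, against -0.03 over all tested probe sets), and 6 had both mutant arrays below all 4 wild type arrays, where 12.6% of all tested probe sets did. None of the 8 passed the limma test between the mutant and the treated wild type, and 4 had an unadjusted p under 0.05. The share of all tested probe sets with such a p was not counted, so nothing is read from the 4. Against the untreated wild type, limma called AT4G24780, AT3G53190 and AT3G09540 lower (adjusted p = 0.0246, 0.00605 and 0.022), where 10.7% of all tested probe sets were called. In AT3G53190 and AT3G09540 the treated wild type also lay below the untreated, by differences of -0.5 and -0.54 (adjusted p = 0.0751 and 0.0724, limma). AT4G24780 was at 426.6 and 334.8, then 408.6 and 402.8, then 233.1 and 206.9, and its log2 difference from the treated wild type was -0.84 (adjusted p = 0.0515, limma). AT5G63180 had 162.1 and 164.5, then 203.6 and 204.6, then 142.8 and 132.3. Its mutant lay below the treated wild type (adjusted p = 0.143, limma) and only -0.22 from the untreated wild type (adjusted p = 0.343, limma). For AT1G04680 the signals were 124.5 and 170.8, then 146.9 and 140.3, then 114.1 and 66.4 (adjusted p = 0.265 against the treated wild type, limma). At the other end AT4G13710 and AT3G55140 had log2 differences of 0.04 and -0.12.

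In the DUF642 family 8 of 10 listed genes were named and 7 tested. The 5 that are not members had log2 differences between -0.55 (AT3G08030) and 0.36 (AT2G34510), none of them called by limma and 0 with an unadjusted p below 0.05, and 2 of the 5 had both mutant arrays below all wild type arrays, where 12.6% of all tested probe sets did. AT3G08030 is about as bright as the 2 members, with 871.3 and 976.4, then 671.2 and 1183.1, then 666.6 and 544.7, and its treated wild type arrays differed widely.

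**Figure D3:**
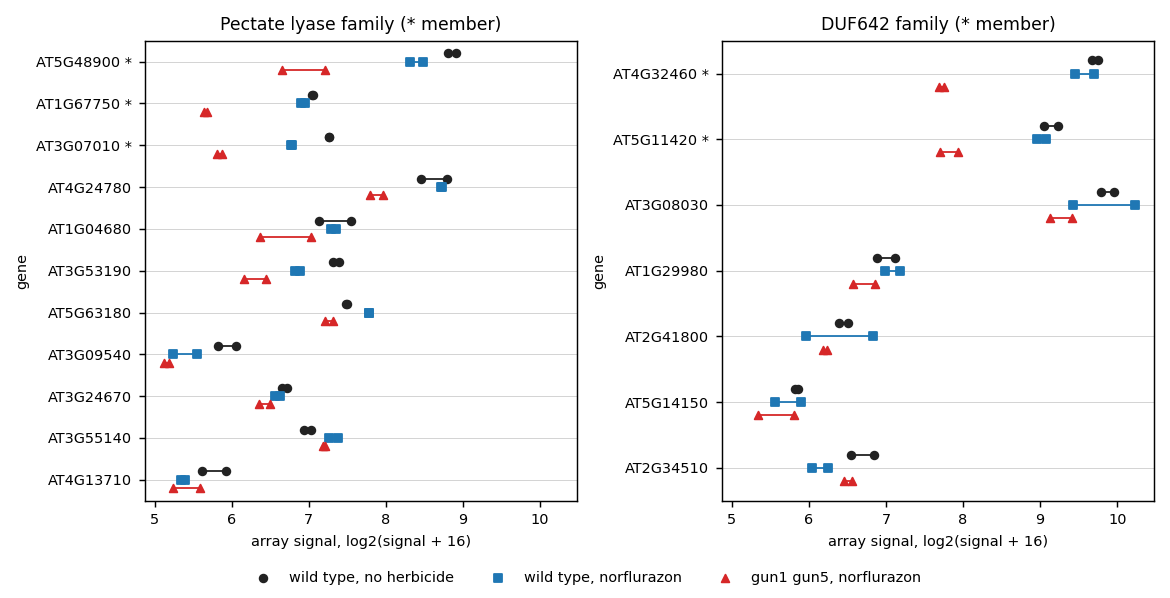
Signals of the tested pectate lyase genes (left) and DUF642 genes (right) on the 6 arrays, as log2(signal + 16), ordered by the log2 difference between treated mutant and treated wild type; asterisks mark members. Among genes without an asterisk, the red triangles lie left of all other points for 6 of 8 pectate lyase genes and 2 of 5 DUF642 genes, against 12.6% of all tested probe sets.

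Proteins that act on or bind lipids were encoded by 5 of the lower genes. AT3G16370, of the GDSL lipase family, was the brightest of the 27 with signals of 2081.9 and 1816.9 in the untreated wild type, 1698.9 and 2087.1 in the treated wild type, and 916.2 and 752.8 in the mutant. AT1G29670, another GDSL lipase, had 534.5 and 625.0, then 567.4 and 622.3, then 298.6 and 162.5. The wild type groups of both overlapped, and the mutant arrays lay below them. The gene next to AT1G29670 on the chromosome is AT1G29660, also of the GDSL family. It had 248.6 and 232.7, then 304.3 and 258.4, then 165.2 and 88.9, and missed the rule because mutant replicate 1 was less than 0.7 below the control. How alike the probes of these neighbours are was not tested.

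GPDHC1 (AT2G41540), a cytosolic glycerol-3-phosphate dehydrogenase, had 175.5 and 137.9, then 136.7 and 169.7, then 68.0 and 62.6. The 4 wild type arrays were interleaved and the mutant arrays lay far below. AT1G30690, a patellin that binds membrane phosphoinositides, had a mean of 112.8 ± 1.56 (SD, n = 2) in the treated wild type and 49.5 ± 10.6 in the mutant. AT4G22490, of the lipid transfer protein family, had 323.7 and 351.2, then 411.5 and 234.7, then 177.6 and 112.8. Of the 27 genes it lay closest to the limit set for the wild type groups, with a shift of 0.55 in one replicate, and its 2 treated wild type arrays were far apart.

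Protein turnover was represented by 3 lower genes. AT5G47550, a phytocystatin, which inhibits cysteine proteases, had 430.5 and 415.7 in the untreated wild type, 517.9 and 430.1 in the treated wild type, and 157.2 and 173.1 in the mutant. The log2 difference from the treated wild type was -1.43 ± 0.17 (SE). CYS1, another phytocystatin, had 298.0 and 310.1, then 446.4 and 298.3, then 304.1 and 196.2, so that its mutant arrays overlapped both wild type groups. AT3G54400, an aspartyl protease, had 453.9 and 542.8, then 418.3 and 424.2, then 216.8 and 168.3, with no overlap between any of the 3 groups. PUB26, a U-box ubiquitin ligase, was the dimmest of the 27, with 29.9 and 15.9, then 19.6 and 17.5, then 5.2 and 3.6.

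Among enzymes of small molecules, AT5G02890, of a family of acyltransferases, had the lowest share in the mutant. Its signals were 56.8 and 55.2 in the untreated wild type, 77.2 and 72.2 in the treated wild type, and 9.8 and 3.0 in the mutant, where the probe set was dim. It was the only lower gene whose treated wild type arrays both lay above both untreated ones. The log2 difference from the treated wild type was -2.03 ± 0.19 (SE). AT1G71695, a class III peroxidase, had a mean of 427.65 ± 15.6 (SD, n = 2) in the untreated wild type, 410.2 ± 95.5 in the treated wild type and 195.55 ± 8.27 in the mutant. For AT2G22590, a UDP-glycosyltransferase, the means were 35.5 ± 11.7, 32.8 ± 2.97 and 5.5 ± 4.1. The dioxygenase gene AT1G14120 had 121.8 and 120.4, then 107.7 and 124.9, then 58.7 and 41.8. Its neighbour AT1G14130, a dioxygenase that oxidises auxin, had a log2 difference of 0.10 between mutant and treated wild type. AT1G80280, an alpha/beta hydrolase, had 70.6 and 78.4, then 71.0 and 73.1, then 36.7 and 38.2.

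The higher gene was AT3G04000, an aldehyde reductase of the short-chain dehydrogenase family. Its signals were 93.8 and 94.8 in the untreated wild type, 92.0 and 90.8 in the treated wild type, and 173.5 and 271.9 in the mutant. The 4 wild type arrays agreed within a few units, and both mutant arrays lay far above them but apart from each other. The log2 difference from the treated wild type was 1.12 ± 0.21 (SE).

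The 6 remaining lower genes have other roles or none that is given here. AT3G22240 had 1336.0 and 1486.0, then 1001.3 and 1520.7, then 341.3 and 585.8, and varied within both treated groups. AT2G39210, a membrane protein of the major facilitator superfamily, had 138.4 and 172.9, then 143.3 and 126.8, then 69.2 and 55.9. AT1G21830 had 240.7 and 222.1, then 278.2 and 234.4, then 111.1 and 107.5. In these 3 genes the mutant arrays lay below all wild type arrays. AT4G23680, of the major latex protein family, had a mean of 1602.65 ± 8.84 (SD, n = 2) in the treated wild type and 839.0 ± 153 in the mutant. AT5G55620 and AT2G18690 had log2 differences of -1.16 ± 0.22 and -0.88 ± 0.16 (SE) from the treated wild type.

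Only AT1G21830 had another probe set that names the same gene. On it the signals were 325.9 and 327.3, then 245.7 and 314.2, then 194.4 and 217.4. The mutant arrays were the lowest there too, but the differences from the treated wild type, -0.31 and -0.50, were smaller than the rule asks.

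The wild type groups were ordered in different ways. In 20 of the 26 lower genes they overlapped, in 5 the treated wild type lay between the control and the mutant without overlap, and in AT5G02890 it lay above the control. The 5 were AT3G07010, AT5G48900, AT3G54400, AT4G23680 and AT1G67750. With so few arrays per group, the wild type groups can separate without a true change. How often they did so among all tested probe sets was not counted, so nothing is read from these counts.

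The mutant arrays differed from each other. In 21 of the 26 lower genes replicate 2 of the mutant was below replicate 1, where 48.7% of all tested probe sets were. The treated wild type had replicate 2 below replicate 1 in 14 of the 26 and the control in 10 (42.8% and 46.7% of tested probe sets). The median log2 difference from the same-numbered treated wild type array was -0.92 in replicate 1 and -1.26 in replicate 2. GH9C2 was at -0.95 and -1.94, AT1G29670 at -0.89 and -1.84, and AT3G10720 at -0.89 and -1.69. AT5G47550 went the other way, at -1.62 and -1.24.

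**Figure D4:**
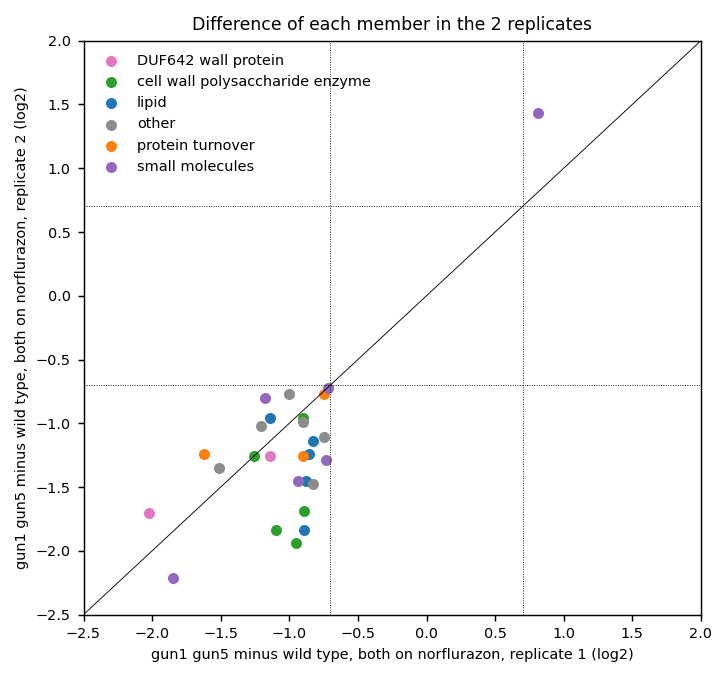
The log2 difference between treated mutant and treated wild type in replicate 1 (x axis) and replicate 2 (y axis) for each of the 27 genes, coloured by role; dotted lines mark the limit of 0.7 and the solid line equal values. Most points lie below the solid line, with medians of -0.92 and -1.26 among the lower genes.

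The limits of the rule passed through a continuous range. Just inside the limit of 0.7 lay PUB26 at 0.703, AT1G80280 at 0.717 and AT1G14120 at 0.728. Just outside it lay AT4G28703 at 0.697, AT5G64870, higher in the mutant, at 0.678, and AT3G14560 at 0.668. For the limit of 0.6 between the wild type groups, AT4G22490 lay inside at 0.551 and AT5G48900 and AT3G07010 at 0.497, and AT1G78450, AT1G53180 and AT1G62500 lay outside at 0.603, 0.62 and 0.68.

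Of the 27 genes, 25 passed the filter on dim signals, and PUB26 and AT2G22590 did not. The median untreated wild type signal of the 26 lower genes was 353.0, against 35.7 over all 13367 probe sets, and on this scale a gene with a signal near 0 cannot lie 0.7 lower. Of the 24 tested lower genes, limma called 22 lower in the mutant than in the treated wild type, where 1.08% of all tested probe sets were called, and all 24 lower than in the untreated wild type, where 10.7% were. None was called by limma between the wild type groups, where 10.3% were called lower and 9.01% higher, and 1 of the 24 had an unadjusted p under 0.05. For 8 of the 25 tested genes the 95% interval of the wild type difference reached beyond the limit of 0.6. The absence of a call therefore does not show that the herbicide left the wild type unchanged. The higher gene was called higher in both mutant comparisons, where 1.75% and 8.51% were. The rule used these same contrasts, so nothing is read from these counts.

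The 27 genes were spread over the 5 chromosomes, with 9, 4, 6, 3 and 5 on chromosomes 1 to 5. No 2 of them lay within 10 kb of each other. Of the protein-coding genes directly next to them, 22 probe sets name 1 gene, none is a member, and their median log2 difference between mutant and treated wild type was -0.14. The pectate lyase gene AT1G67750 lies between AT1G67760, at -0.06, and PSBY, a photosystem II subunit gene. In the mutant PSBY was higher than in the treated wild type, by 1.29, and lower than in the untreated wild type, by a difference of -0.82. PSBY had 3043.1 and 2798.0 in the untreated wild type, 639.4 and 691.0 in the treated wild type, and 1564.5 and 1734.7 in the mutant.

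Together 12 lists of hormone, stress, clock, light and metabolic genes held 154 genes. Of these, 13 were named alone by a probe set, 10 were tested and none was a member. No gene was named from the lists for salicylate and camalexin, gibberellin and brassinosteroid, touch, wax and lipid transfer, or nitrate. Those lists could not yield a member. The jasmonate list had 1 gene named and 0 tested. Against the treated wild type, 1 of the 10 was higher and 0 lower in the mutant (1.75% and 1.08% of all tested probe sets). The higher one was COR15B, a cold-regulated chloroplast protein gene, at a log2 difference of 1.59 (adjusted p = 0.00622, limma). Against the untreated wild type, 2 of the 10 were higher and 1 lower in the mutant (8.51% and 10.7% of all tested probe sets). With so few genes, nothing is read from these counts. The flavonoid glucosyltransferase gene UGT78D2 was higher by 0.92 (adjusted p = 0.01, limma) and the light signalling gene HYH by 1.05 (adjusted p = 0.00892, limma). HYH was also higher in the treated than in the untreated wild type, by 0.82 (adjusted p = 0.0208, limma). The lower one was the auxin-conjugating enzyme gene WES1, which had 240.4 and 278.8 in the untreated wild type, 169.0 and 139.4 in the treated wild type, and 91.4 and 96.6 in the mutant. WES1 passed the limma test against the untreated wild type (adjusted p = 0.00281) and between the wild type groups (adjusted p = 0.0282), and did not pass against the treated wild type (adjusted p = 0.122).

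Of 30 listed marker genes of root, seed, guard cells, shoot meristem and shoot epidermis, 6 were named, none of them a seed or shoot epidermis marker. The root hair expansin genes EXPA7 and EXPA18 had signals between 18.1 and 56.1 and between 40.8 and 74.3 on the 6 arrays, and neither differed past the threshold between the mutant and the treated wild type (adjusted p = 0.458 and 0.955, limma). The stomatal lineage gene FMA ran from 19.5 to 40, and SPCH, MUTE and CLV3 stayed at or below 23.7. In whole seedlings, fewer cells of a type and less RNA per cell cannot be told apart.

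The arrays also differed within and between groups in technical measures. The standard deviation of the log2 difference between replicates was 0.215 for the control pair, 0.383 for the mutant pair and 0.5 for the treated wild type pair. On treated wild type replicate 1 the 25S rRNA control gave 2511.1, and on the other 5 arrays between 8.2 and 115.6. The 3′ to 5′ ratio of actin was 4.82 and 4.65 on the control arrays and between 7.66 and 8.17 on the 4 norflurazon arrays, so it moved with the herbicide and cannot be told apart from it. The part of these differences in the results was not tested. When an array was left out and the other of its group stood in for it, the rule asks less and found 59 genes without treated wild type replicate 1, 67 without treated wild type replicate 2, 91 without mutant replicate 1 and 51 without mutant replicate 2. In each of these 25 or 26 of the 27 genes were found again.

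**Figure D5:**
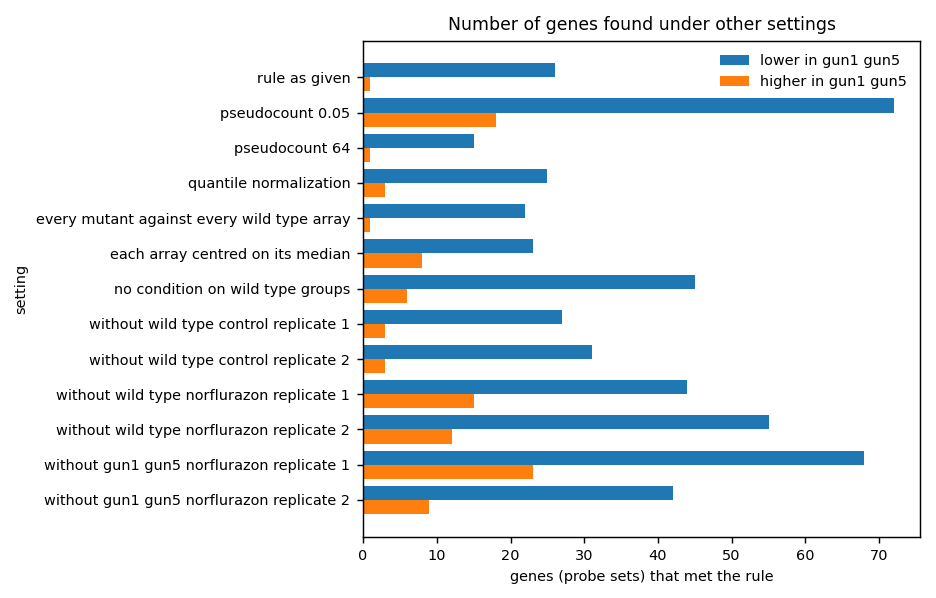
Number of genes that met the rule, lower (blue) and higher (orange) in the treated mutant, as given and under other pseudocounts, scalings, conditions and with 1 array left out. Lower genes outnumber higher ones under every setting shown, from 26 against 1 as given to 23 against 8 with each array centred on its median.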

How the data were processed

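Biotin-labelled RNA of 6 samples was hybridised to ATH1 arrays. The authors deposited 1 linear intensity per probe set and array. The submitters' processing notes name MAS5, without a version. With the lowest and highest 2% of signals trimmed, the array means were 99.59 to 99.85, which shows a common scaling. The number of arrays limits the precision.

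Names came from the platform's annotation and RefSeq's gene table (assembly TAIR10.1): 13513 name 1 gene, 503 several, and the rest are unnamed here. Signals were transformed to log2(signal + 16). The members, families and lists were chosen with earlier results of these data known. For the background, limma 3.58.1 (lmFit, eBayes with trend, under R 4.3.3) fitted group means to the 6 arrays, on the 13648 probe sets whose mean reached the 40th percentile, with 64 control probe sets left out. It left 3 residual degrees of freedom; p-values are two-sided and adjusted by Benjamini-Hochberg over all tested probe sets, with a threshold of 0.05. Each SE given is that of this fit, which pools the spread of all 3 groups and moderates it towards that of other probe sets. The fit was also run on simulated data with independent arrays and the same spread in all groups. In the real data the groups differed in spread and the replicate differences of the norflurazon groups correlated, so nothing is read from that run.

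Values per array are given for the 15 lower members with the widest smallest distance, for members that share a family, for those next to the limits of the rule and for the higher member; the others are given by group mean or difference. Roles are background knowledge. Promoter and protein sequences, and the promoter motifs planned for them, were not analysed here. The alternatives were other pseudocounts, filters and scalings, the replicate number as a block, and leaving out each array.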

Additional observations from a re-analysis of the deposited data

How the results depend on the processing

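The number of genes meeting the rule was 90 (72 lower, 18 higher) with a pseudocount of 0.05 and 16 with a pseudocount of 64, in which 26 and 15 of the 27 were found again. It was 23 when every mutant array was set against every wild type array, without regard to replicate number, 31 with each array centred on its median and 51 without the condition on the wild type groups. Centring, the last of these and the stand-in for a left-out array were chosen after seeing the data. With arrays left out it ranged from 30 to 218, the highest when replicate 1 was left out of every group; fewer arrays make the rule looser by construction. Of 486 log2 differences of the 27 genes under other pseudocounts, quantile normalization and left-out arrays, 116 moved by more than 1 SD between replicates. None changed direction. Since the mutant arrays of all 27 lay outside all 4 wild type arrays, another pseudocount or a left-out array could not reverse a direction. Nothing is read from its absence.

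In the mutant against the treated wild type the background calls were 77 higher and 43 lower with no filter, and 328 higher and 216 lower with the replicate number as a block. With 1 array left out they ranged from 57 to 390 higher and from 11 to 373 lower. Against the untreated wild type they were 759 higher with no filter, and ranged from 88 to 1965 higher and from 364 to 2046 lower; between the wild type groups they ranged from 123 to 1557 higher and from 498 to 1639 lower. The lowest counts came without mutant replicate 2 in the mutant against the treated wild type, and without control replicate 1 in the other comparisons. The labels do not say that a replicate number marks a shared batch. The difference between replicates correlated at 0.48 between the 2 norflurazon groups over the tested probe sets, and at 0.0743 and 0.0793 between the control and the treated wild type and mutant. The fit as reported has no block, and the membership rule does compare same-numbered arrays; its count without regard to number is the 23 above.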

Other observations

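The same numbers were also met by 51 probe sets that do not name 1 nuclear gene. Of 8730 probe sets that are unnamed here, 43 were lower and 6 higher in the treated mutant, and of 503 that name several genes 1 was lower and 1 higher. Lower probe sets outnumbered higher ones among the unnamed by 43 to 6. This count comes from the same arrays and rule and is given under 1 scaling only, so it is no separate support for the uneven direction.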
